A study of Homo sapiens with 15 samples.

Results

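In NCI-H295R cells, 8 of 21493 genes held more RNA with active NFATC4 than with mock plasmid and less RNA in one set of control and NFATC4-KO libraries than in the other set. They were DGKI, SEL1L3, KAZN, SCG2, TFPI2, PDX1, DNAH17 and MYH3. The genes were chosen from their CPM, the reads counted for a gene scaled to the total of its library. The log2 ratio of mean CPM with 0.5 added had to be at least 1 for ΔNFATC4 over mock. It had to be −1 or lower for control 3, control 4, NFATC4-KO 3 and NFATC4-KO 5 (below called the second set) over control 1, control 2, NFATC4-KO 1 and NFATC4-KO 2 (the first set). Both ratios were thus fixed by the choice and are given as descriptions, without a test. The sets are not groups of the study, since each holds 2 libraries of each label. Of all genes, 139 (0.647%) met the first condition and 466 (2.17%) met the second, and 9 met both, of which 1 was among the 3 genes (NFATC4, CYP11B1 and CYP11B2) set aside by the choice.

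NCI-H295R is a line from a human adrenocortical carcinoma that makes aldosterone and other steroids, and the study asked how NFATC4 acts on aldosterone production. Wild-type cells were transfected with a plasmid for constitutively active NFATC4 lacking its N-terminal domain (ΔNFATC4, n = 3 libraries) or with the empty plasmid pcDNA3.T7 (mock, n = 4), and RNA was taken 3 days after transfection. The NFATC4-KO libraries (n = 4, numbered 1, 2, 3 and 5) are labelled as NFATC4 knock-out cells, for which single-cell clones were grown after CRISPR/Cas9 editing, and the control libraries (n = 4) as wild type, for which cells received empty plasmids in parallel. All 4 groups share the carcinoma background and the serum with insulin, transferrin and selenium in the medium. The sources used here do not say which clone each library came from or whether any cultures were separate, and a p value here speaks of the spread among these libraries, which may be technical. Transient transfection usually reaches only part of the cells and puts NFATC4 under a plasmid promoter. In such bulk RNA, fewer cells that express a gene and less RNA per cell cannot be told apart.

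NFATC4 is one of the NFAT transcription factors, which rest in the cytoplasm in a phosphorylated form. When calcium rises, calmodulin switches on the phosphatase calcineurin, which removes phosphates from the N-terminal regulatory domain of NFAT and lets the protein enter the nucleus, where it binds DNA around the core GGAAA, often beside a partner factor. Without that domain the protein no longer depends on calcineurin. In the adrenal zona glomerulosa, angiotensin II and potassium raise calcium and thereby drive aldosterone synthesis.

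Libraries held 18.8 to 28.2 M counts assigned to genes, and 3 counts, the limit that a count of 0 allows, equalled 0.107 to 0.160 CPM per library for counting error alone. The targeted gene did not follow the knockout labels across both sets. NFATC4 RNA stood at 113, 109, 45.2 and 54.5 CPM in control 1 to 4 and at 92.7, 86.3, 58.7 and 54.4 CPM in NFATC4-KO 1, 2, 3 and 5. It was low in control 3, control 4, NFATC4-KO 3 and NFATC4-KO 5, and the second set lay below the first without overlap whatever the label. Editing need not remove the RNA of a gene, so this level does not show which libraries lack the protein. All 10 adrenocortical markers examined were at 1 CPM or more in some group. Their summed level was 2198 to 2485 CPM with ΔNFATC4, 2114 to 2297 CPM in mock libraries, 1570 to 2245 CPM in the first set and 1129 to 1347 CPM in the second set. The chromaffin cell genes TH, DBH, PNMT and PHOX2A were at or near 0. Of the granule genes in that list, CHGA lay at 1.09 to 2.74 CPM over all libraries, and CHGB at 37.1 to 42.3 CPM in ΔNFATC4 and mock libraries, 29.9 to 35.9 CPM in the first set and 49.1 to 65.4 CPM in the second set. The 4 endothelial markers summed to at most 0.695 CPM and the 4 leukocyte markers to at most 2.27 CPM. Fibroblast markers, mostly COL1A1, summed to 9.88 to 13.4 CPM in ΔNFATC4 and mock libraries and in the first set, and to 4.69 to 6.87 CPM in the second set. The adrenocortical and fibroblast sums thus lay on the same side as the 8 genes between the sets and CHGB on the other side. Single adrenocortical markers differed. STAR, CYP11A1, CYP17A1, CYP21A2, FDX1 and INHA lay lower in the second set without overlap, and NR5A1, HSD3B2 and MC2R overlapped. NR0B1 lay higher there, at 10.5 to 14.1 CPM against 5.50 to 7.11 CPM in the first set. The part of these markers in the levels of the 8 genes was not tested.

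**Figure D1:**
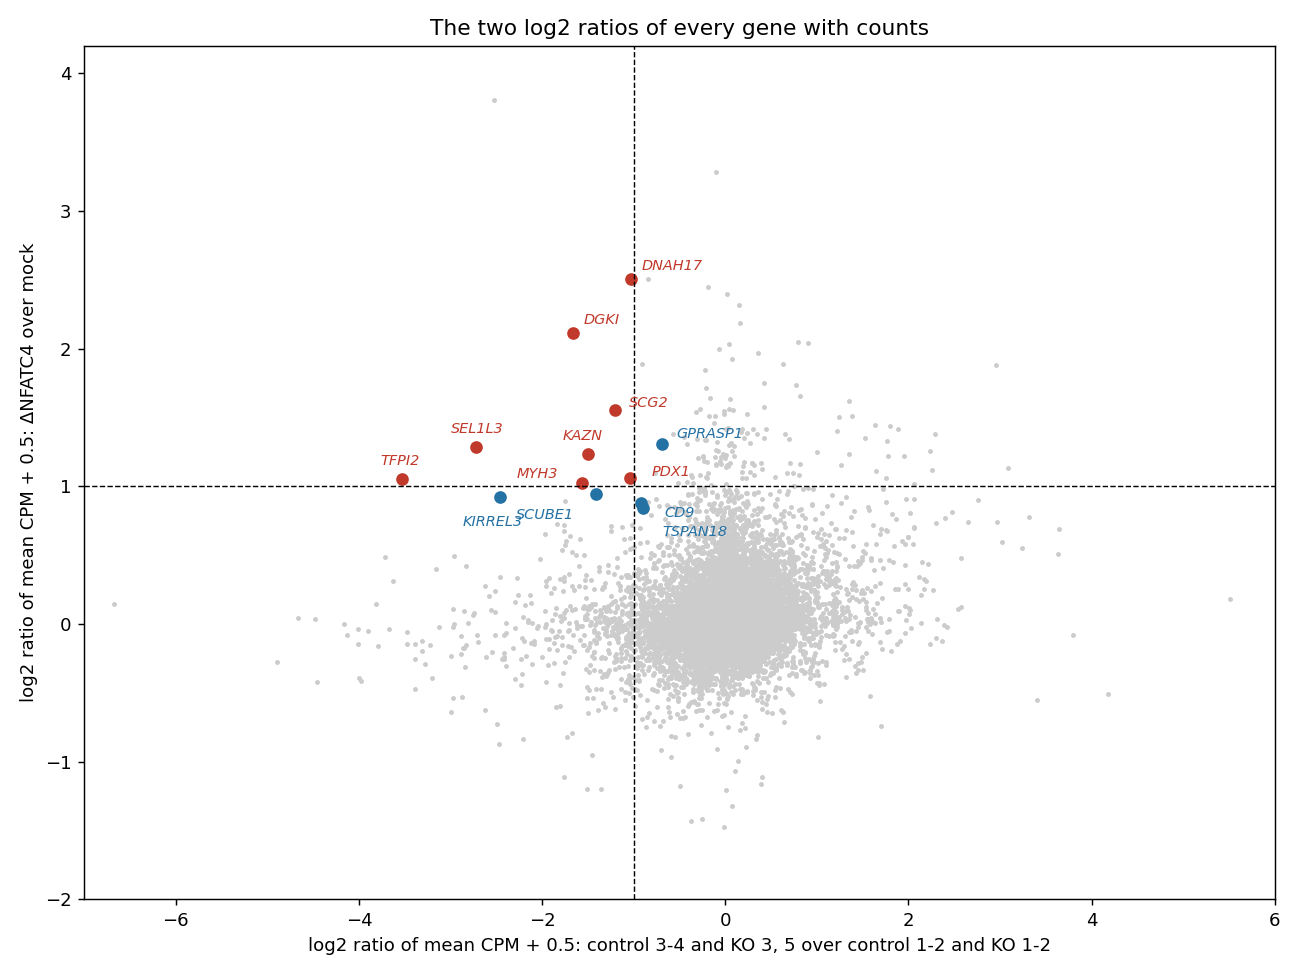
Log2 ratio of mean CPM with 0.5 added for ΔNFATC4 over mock (vertical axis) against the second set over the first set (horizontal axis) for each gene with at least 1 count (grey points). Dashed lines mark 1 and −1, the 8 chosen genes are red, genes near the limits or named as markers are blue, and TFPI2 lies farthest left of the 8 at −3.53 and DNAH17 highest at 2.51.

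The 8 genes do not belong to one known pathway. Their products comprise an enzyme of lipid signaling (DGKI), a membrane protein and a junction-related protein (SEL1L3 and KAZN), proteins of secretion and of the cell surroundings (SCG2 and TFPI2), a homeodomain factor (PDX1) and motor proteins of cilia and muscle (DNAH17 and MYH3). Per kilobase of all annotated exons, TFPI2 was the most abundant of them with ΔNFATC4 (14.4 CPM per kb), followed by SEL1L3 (4.47 CPM per kb) and MYH3 (2.23 CPM per kb). KAZN stood at 1.22, SCG2 at 0.995, DGKI at 0.460, PDX1 at 0.400 and DNAH17 at 0.279 CPM per kb. Per kilobase of the MANE transcript, KAZN (2.78 CPM per kb) lay above MYH3 (2.48 CPM per kb), so their order depends on the length used. The 8 were compared only with each other here, and where these levels stand among all genes was not examined. All 8 passed the filter on low counts that kept 14368 genes. Of 3 genes proposed as markers of the module, only SEL1L3 met both limits, and GPRASP1 and CD9 did not, though both did with 0.1 CPM added in place of 0.5.

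TFPI2 is shown by sequence because it had the largest difference between the sets among the 7 genes counted in both and the only call between the knockout labels described further on. The 250 bases before its start site in RefSeq (GRCh38.p14, chr7:93890754-93891003, minus strand, 5′ to 3′) hold the NFAT core once, in its reverse complement TTTCC, set in capitals.
TFPI2 upstream region: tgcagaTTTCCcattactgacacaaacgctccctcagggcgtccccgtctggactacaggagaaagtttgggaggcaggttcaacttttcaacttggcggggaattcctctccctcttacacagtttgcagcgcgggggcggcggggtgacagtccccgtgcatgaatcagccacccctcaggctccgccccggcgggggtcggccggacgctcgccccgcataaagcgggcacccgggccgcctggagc
RefSeq promoter windows of 300 bases were matched for 4 of the 8 genes (DGKI, SEL1L3, KAZN and TFPI2), with 11 windows in all. GGAAA or TTTCC, searched on both strands, occurred in 6 of these 11 windows and in 61.2% of 35116 windows of all genes. TGACG or CGTCA, letters found in cAMP response elements, occurred in 1 of 11 against 24.6% of all windows. Neither share stood above that of all genes, and a match is not evidence that a factor binds there.

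DGKI (ENSG00000157680, chromosome 7, 137381037 to 137847092, minus strand, GRCh38) encodes diacylglycerol kinase iota, which turns the second messenger diacylglycerol into phosphatidic acid. It was counted at 7.82, 7.23 and 6.60 CPM with ΔNFATC4 and at 1.10, 1.32, 1.48 and 1.24 CPM in mock libraries. It stood at 2.40 and 3.21 CPM in control 1 and 2 and at 2.52 and 3.30 CPM in NFATC4-KO 1 and 2. The level was 0.913 and 0.463 CPM in control 3 and 4 and 0.305 and 0.565 CPM in NFATC4-KO 3 and 5. All 4 levels were apart, with ΔNFATC4 highest, the first set next, then mock, and the second set lowest, and no range overlapped its neighbor. Mean levels were 7.22 ± 0.607 CPM (SD, n = 3), 2.86 ± 0.461 (n = 4), 1.29 ± 0.157 (n = 4) and 0.561 ± 0.257 (n = 4) in that order. DGKI was thus 5.61-fold higher with ΔNFATC4 than with mock, and 5.09-fold higher in the first set than in the second. It was the only one of the 8 with both log2 ratios beyond 1.5 (2.11 and −1.66). The 8 other diacylglycerol kinase genes with enough counts had log2 ratios of −0.36 to 0.55 for ΔNFATC4 over mock and of −0.48 to 1.43 between the sets, so none came near DGKI in both. Of the genes on either side of DGKI, PTN, 37.3 kb away, had a log2 ratio of −4.48 between the sets and of 0.04 with ΔNFATC4. CREB3L2, 27.9 kb away, had log2 ratios of −0.24 and 0.07 in these comparisons.

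SEL1L3 (ENSG00000091490, chromosome 4, 25747433 to 25863760, minus strand) encodes a membrane protein with repeats like those of SEL1L, an adaptor of the degradation of endoplasmic reticulum proteins. It was counted at 33.3, 33.7 and 33.2 CPM with ΔNFATC4 and at 13.4, 12.9, 13.1 and 14.3 CPM in mock libraries. The first set held 18.2 and 16.2 CPM under the control label and 19.4 and 18.2 CPM under the NFATC4-KO label. The second set held 2.65 and 1.81 CPM in control 3 and 4 and 1.96 and 2.83 CPM in NFATC4-KO 3 and 5. The 3 ΔNFATC4 libraries lay close together, and as for DGKI no level overlapped the next. The means were 33.4 ± 0.248 (SD, n = 3), 18.0 ± 1.35 (n = 4), 13.4 ± 0.599 (n = 4) and 2.31 ± 0.503 CPM (n = 4) for ΔNFATC4, the first set, mock and the second set. It was 2.49-fold higher with ΔNFATC4 than with mock, while the first set was 7.78-fold above the second. SEL1L itself had log2 ratios of −0.01 with ΔNFATC4 and 0.13 between the sets. SMIM20, which overlaps SEL1L3 on the opposite strand, had log2 ratios of −0.04 and 0.08, so its counts did not share the pattern.

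KAZN (ENSG00000189337, chromosome 1, 13892792 to 15118043, plus strand) encodes kazrin, a protein linked to cell junctions that binds periplakin. Its level was 15.8, 17.1 and 17.7 CPM with ΔNFATC4 and 7.93, 6.94, 6.15 and 6.46 CPM in mock libraries. It stood at 8.05 and 7.15 CPM in control 1 and 2, at 6.40 and 5.88 CPM in NFATC4-KO 1 and 2, at 2.43 and 1.76 CPM in control 3 and 4, and at 2.13 and 2.09 CPM in NFATC4-KO 3 and 5. Mock libraries and the first set overlapped, while ΔNFATC4 lay above both and the second set below both. The mean was 6.87 ± 0.778 CPM in mock libraries and 6.87 ± 0.944 CPM in the first set (SD, n = 4 each), a 1.00-fold difference. Against these, KAZN was at 16.8 ± 0.985 CPM with ΔNFATC4 (SD, n = 3) and at 2.10 ± 0.276 CPM in the second set (SD, n = 4).

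SCG2 (ENSG00000171951, chromosome 2, 223596940 to 223602361, minus strand) encodes secretogranin II, a granin of dense-core granules and the precursor of the peptide secretoneurin. Its counts came to 2.36, 2.29 and 3.04 CPM with ΔNFATC4 and to 0.424, 0.383, 0.694 and 0.675 CPM in mock libraries. It stood at 2.76 and 2.05 CPM in control 1 and 2 and at 1.94 and 2.24 CPM in NFATC4-KO 1 and 2. The second set held 0.739 and 0.972 CPM in control 3 and 4 and 0.392 and 0.652 CPM in NFATC4-KO 3 and 5. These levels formed a high pair and a low pair: ΔNFATC4 overlapped the first set, and mock overlapped the second. Mock libraries were the lowest on average for SCG2 alone among the 8, with 0.544 ± 0.163 CPM (SD, n = 4) against 0.689 ± 0.240 CPM (SD, n = 4) in the second set. SCG2 was 4.71-fold higher with ΔNFATC4 than with mock and 4.13-fold higher in the first set than with mock. Mock libraries held only 9 to 19 counts of SCG2 each, and with 0.5 CPM added ΔNFATC4 lay 2.93-fold over mock. None of the 5 other granin genes with enough counts met both limits. SCG5 had the same directions as SCG2 at smaller size, with log2 ratios of 0.71 and −0.22. VGF, another granule protein, was higher with ΔNFATC4 (203 against 77.8 CPM, log2 ratio 1.38) but was higher, not lower, in the second set (280 against 56.6 CPM, log2 ratio 2.30). Family members here were chosen after their values were seen and carry no test.

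TFPI2 (ENSG00000105825, chromosome 7, 93885396 to 93890753, minus strand) encodes tissue factor pathway inhibitor 2, a secreted inhibitor of serine proteases in the extracellular matrix. Its level was 34.0, 35.7 and 35.9 CPM with ΔNFATC4 and 18.7, 16.6, 14.9 and 16.7 CPM in mock libraries. It stood at 20.5 and 18.9 CPM in control 1 and 2 and at 13.7 and 16.9 CPM in NFATC4-KO 1 and 2. The second set held 2.04 and 1.20 CPM in control 3 and 4 and 0.523 and 0.478 CPM in NFATC4-KO 3 and 5. Mock libraries and the first set overlapped, and within each set both libraries labelled NFATC4-KO lay below both labelled control. Mean levels were 35.2 ± 1.05 CPM with ΔNFATC4 (SD, n = 3), 16.7 ± 1.54 CPM in mock libraries, 17.5 ± 2.94 CPM in the first set and 1.06 ± 0.733 CPM in the second set (SD, n = 4 each). The 16.5-fold difference between the sets was the largest of the 7 genes with counts in both, whereas the 2.11-fold difference with ΔNFATC4 was among the smallest of the 8. TFPI, the related inhibitor of the coagulation start, had log2 ratios of 0.08 and 0.14. GNG11, the next gene to its right on the chromosome, had a log2 ratio of 0.54 with ΔNFATC4 and of −0.05 between the sets. CALCR, the next to its left, had 0.22 and −1.03, on means of at most 0.656 CPM. GNGT1, which overlaps TFPI2 on the opposite strand, averaged at most 0.161 CPM in any group.

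PDX1 (ENSG00000139515, chromosome 13, 27920000 to 27926313, plus strand) encodes a homeodomain transcription factor of pancreas development and of beta cells. It gave 28, 25 and 17 counts with ΔNFATC4 (1.14, 1.08 and 0.905 CPM) and 2, 8, 6 and 7 counts in mock libraries (0.0848, 0.341, 0.277 and 0.249 CPM). It gave 13 and 17 counts in control 1 and 2 (0.521 and 0.657 CPM) and 9 and 12 counts in NFATC4-KO 1 and 2 (0.436 and 0.508 CPM). No count fell in any of the 4 libraries of the second set. The groups did not overlap, with the same order as for DGKI and SEL1L3. Taking 3 counts over the 4 libraries (0.0331 CPM) as the limit that 0 allows, PDX1 was at least 16.0-fold higher in the first set, at least 7.18-fold higher in mock libraries and at least 31.5-fold higher with ΔNFATC4 than in the second set. These levels are low, and with ΔNFATC4 the gene averaged 1.04 ± 0.122 CPM (SD, n = 3). CDX2, a homeobox gene of the gut and the next gene 34.6 kb away, averaged 1.26 CPM with ΔNFATC4, 0.632 CPM in mock libraries, 1.12 CPM in the first set and 0 CPM in the second set. Its log2 ratios were 0.64 and −1.70, so it missed the limit with ΔNFATC4.

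DNAH17 (ENSG00000187775, chromosome 17, 78423697 to 78577396, minus strand) encodes an axonemal dynein heavy chain of sperm flagella. It reached 4.40, 4.07 and 5.01 CPM with ΔNFATC4 and stood at 0.255, 0.511, 0.324 and 0.426 CPM in mock libraries. It stood at 1.20 CPM in both control 1 and control 2, at 1.12 and 0.931 CPM in NFATC4-KO 1 and 2, at 0 and 0.417 CPM in control 3 and 4, and at 0.261 and 0.478 CPM in NFATC4-KO 3 and 5. The ΔNFATC4 libraries stood far above all others, and mock overlapped the second set. DNAH17 had the largest difference with ΔNFATC4 of the 8 at 11.9-fold over mock (4.49 ± 0.476 CPM, SD, n = 3, against 0.379 ± 0.113 CPM, SD, n = 4). Mock libraries held only 6 to 12 counts of DNAH17 each, and with 0.5 CPM added the difference was 5.68-fold. The difference between the sets, 3.85-fold on means of 1.11 ± 0.127 and 0.289 ± 0.213 CPM (SD, n = 4 each), also rested on few counts. The 10 other axonemal heavy chain genes with enough counts had log2 ratios of at most 0.84 with ΔNFATC4.

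MYH3 (ENSG00000109063, chromosome 17, 10628526 to 10657309, minus strand) encodes the embryonic myosin heavy chain of skeletal muscle. It was counted at 14.6, 16.3 and 13.9 CPM with ΔNFATC4 and at 6.40, 6.30, 7.68 and 7.99 CPM in mock libraries. It stood at 15.2 and 12.6 CPM in control 1 and 2 and at 10.2 and 11.4 CPM in NFATC4-KO 1 and 2. The second set held 2.82 and 4.17 CPM in control 3 and 4 and 4.44 and 3.91 CPM in NFATC4-KO 3 and 5. Control 1 reached into the range of ΔNFATC4, and both groups lay above mock, which lay above the second set. MYH3 was 2.10-fold higher with ΔNFATC4 (14.9 ± 1.24 CPM, SD, n = 3) than with mock (7.09 ± 0.864 CPM, SD, n = 4). It was the weakest member, with a log2 ratio of 1.02 that fell under 1 when counts were scaled by TMM factors or by DESeq2's size factors. Of its transcript, 0.978% of 100-base windows were identical to MYH1, MYH2 or MYH13, and MYH2 averaged at most 0.0956 CPM, and how many reads such copies share was not tested. No other sarcomeric myosin heavy chain gene examined had enough counts to be kept.

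**Figure D2:**
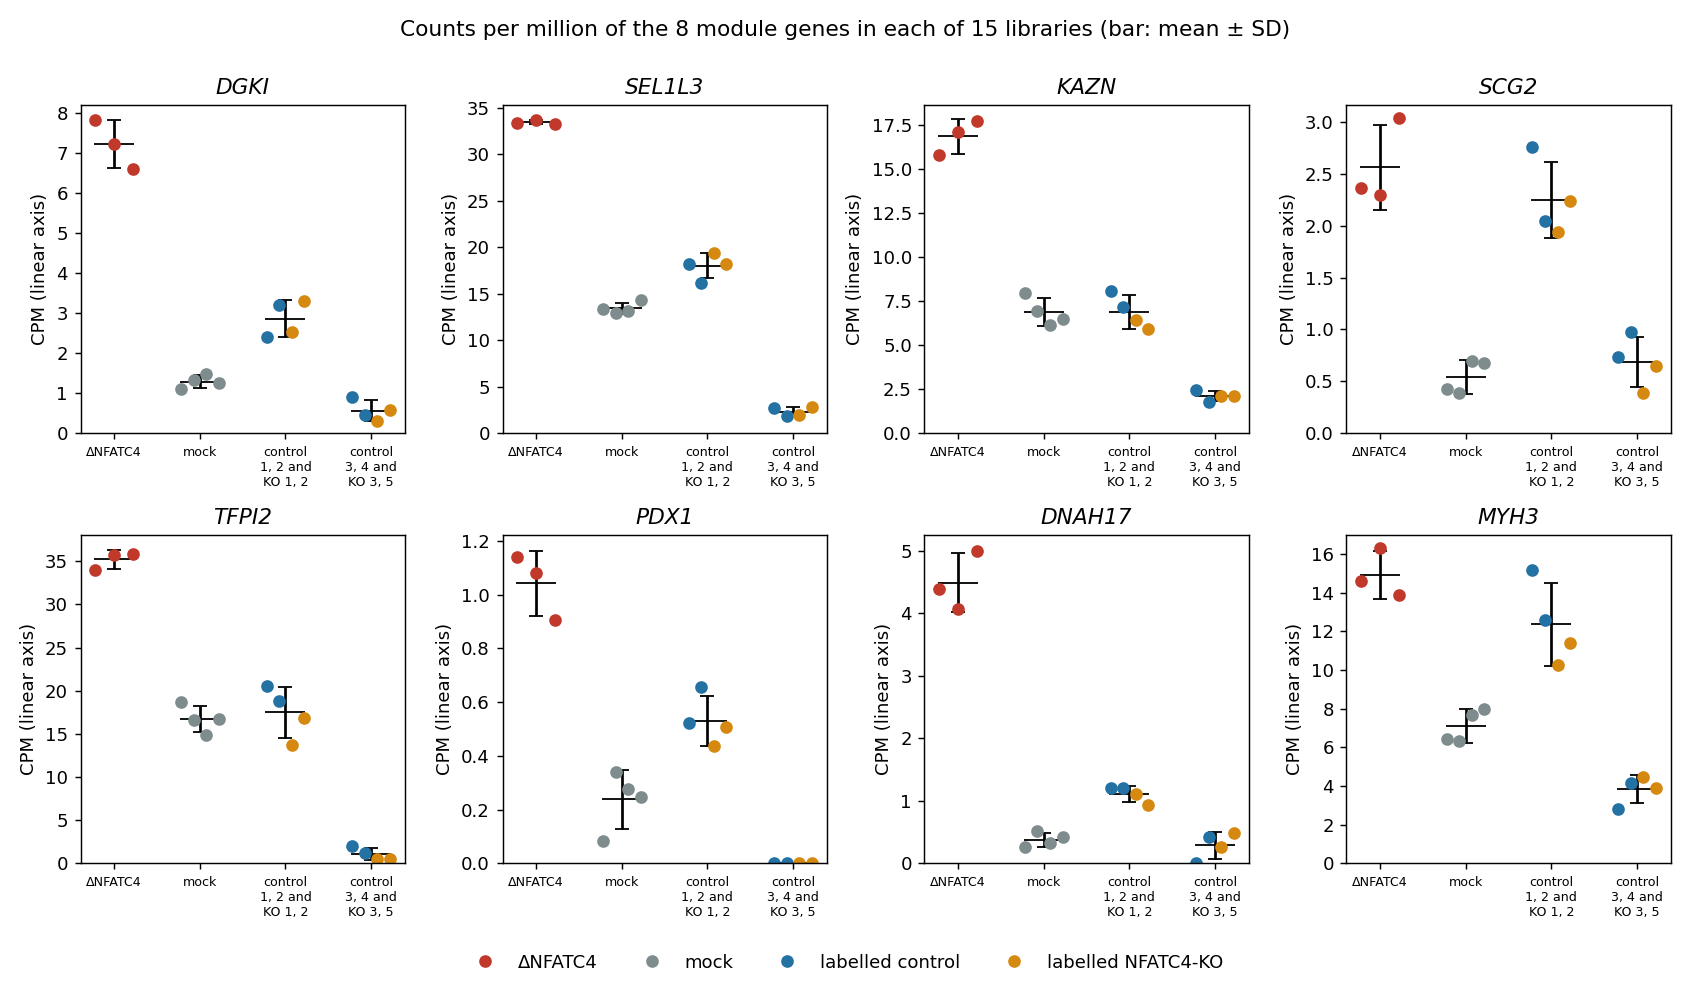
CPM of each of the 8 genes in 15 libraries on linear axes that start at 0, with 1 point per library and the mean ± SD as a bar. Blue and orange points are the libraries labelled control and NFATC4-KO, and under both labels the first set lies above the second in each panel. The labels do not overlap in the first set for KAZN, TFPI2, PDX1, DNAH17 and MYH3, and in the second set for SCG2 and TFPI2. PDX1 is at 0 in all 4 libraries of the second set.

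At the limit of the choice, MYH3, DNAH17 and PDX1 lay just inside, with the smaller of their log2 ratios at 1.02, 1.03 and 1.04 in size. SCUBE1 (0.95 and −1.42), KIRREL3 (0.92 and −2.46) and TSPAN18 (0.88 and −0.92) lay just outside. The limit thus cuts through a run of genes with like values. GPRASP1, a sorting protein for G protein-coupled receptors, was counted at 1.79, 1.77 and 2.24 CPM with ΔNFATC4 and at 0.806, 0.469, 0.370 and 0.284 CPM in mock libraries. It stood at 1.64 and 0.812 CPM in control 1 and 2, 0.873 and 1.10 CPM in NFATC4-KO 1 and 2, 0.565 and 0.417 CPM in control 3 and 4, and 0.566 and 0.435 CPM in NFATC4-KO 3 and 5. It passed with ΔNFATC4 (1.31) and missed between the sets (−0.69), although the sets did not overlap. CD9, a tetraspanin of the cell surface, was counted at 1.63, 1.47 and 1.44 CPM with ΔNFATC4 and at 0.339, 0.554, 0.879 and 0.71 CPM in mock libraries. In the sets it stood at 0.481 and 0.541 CPM in control 1 and 2, 0.485 and 0.296 CPM in NFATC4-KO 1 and 2, 0.0435 CPM in control 3 and 0 CPM in control 4 and NFATC4-KO 3 and 5. It had both differences, at 0.84 and −0.90, and missed each limit narrowly.

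Over the groups, 7 of the 8 genes had the same order of mean levels, ΔNFATC4 above the first set, the first set above mock, and mock above the second set. SCG2 alone had the second set above mock. Only DGKI, SEL1L3 and PDX1 had all 3 steps without overlap. The choice itself put ΔNFATC4 above mock and the first set above the second. How many of all genes had this order, or all 3 steps without overlap, is not given here, so nothing is read from these counts. NFATC4 RNA had the same order, with 332, 360 and 346 CPM with ΔNFATC4, 89.2, 92.3, 104 and 86.6 CPM in mock libraries and the values of the sets given above. Its means were 346 CPM with ΔNFATC4, 100 CPM in the first set, 93.1 CPM in mock libraries and 53.2 CPM in the second set, and reads of the plasmid count toward the first of these. For NFATC4 itself the first set and mock overlapped. The 8 genes differed in that step, from 1.00-fold for KAZN and 1.05-fold for TFPI2 to 2.93-fold for DNAH17 and 4.13-fold for SCG2. In the first set, 6 of the 8 lay above mock without overlap, where 20.0% of all genes kept by the filter did so. Likewise 6 of 8 lay higher with ΔNFATC4 than in the first set (21.6% of all genes), and 6 of 8 higher in mock libraries than in the second set (21.0% of all genes). The choice used these levels, so the shares are given beside each other and nothing is read from them.

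**Figure D3:**
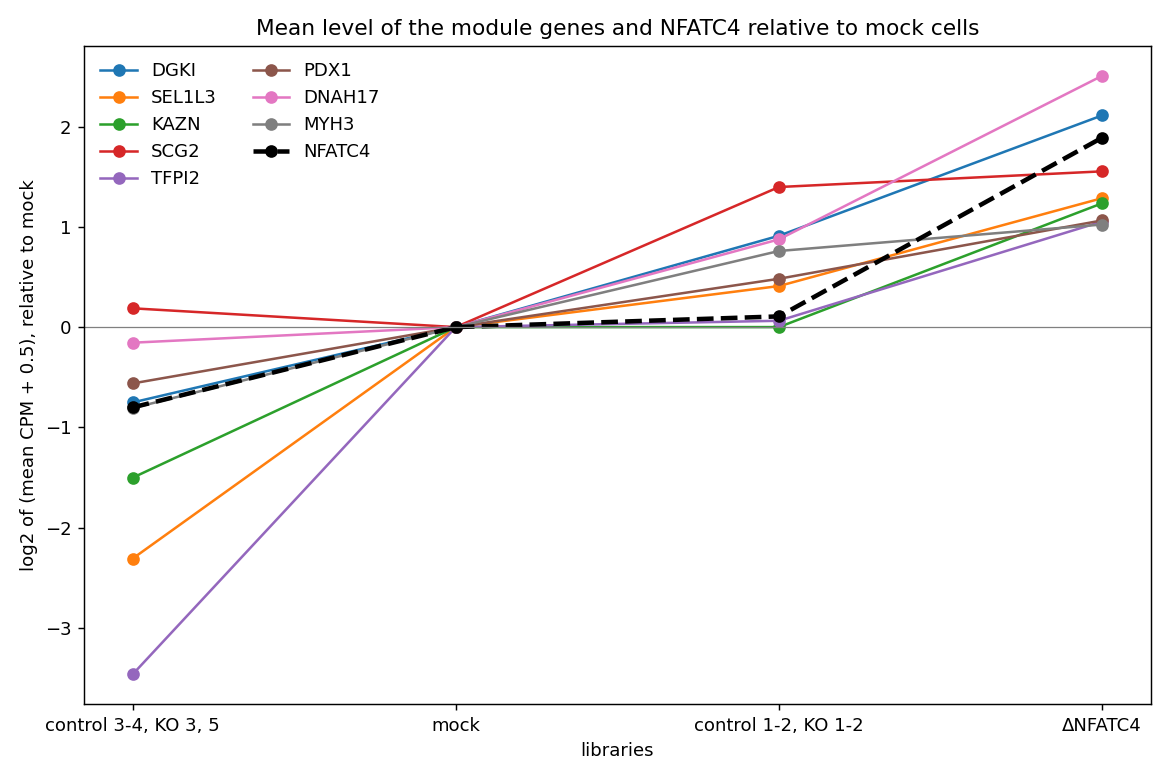
Mean CPM with 0.5 added relative to mock, on a log2 axis, for each of the 8 genes and for NFATC4 (dashed), with the libraries ordered by NFATC4 level and lines joining the points of a gene. DNAH17 reaches 2.51 with ΔNFATC4 although it lies close to mock in the second set, while TFPI2 falls lowest in the second set.

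A gene with a large difference in one comparison did not always have one in the other. TFPI2 lay lowest in the second set, with a log2 ratio of −3.53 to the first set, and had only 1.05 with ΔNFATC4, whereas DNAH17 had 2.51 with ΔNFATC4 and −1.03 between the sets. Across the 15 libraries, Pearson's r between each gene and NFATC4 was taken on log2 CPM with 0.5 added. It was 0.94 for DNAH17, 0.93 for KAZN and 0.91 for DGKI and PDX1. SEL1L3 had 0.84, MYH3 0.83, TFPI2 0.78 and SCG2 0.67. Within the 8 libraries labelled control and NFATC4-KO, Pearson's r ranged from 0.85 to 0.99. Spearman's rank correlation in these 8 libraries ran from 0.55 for DGKI and 0.69 for SEL1L3 to 0.98 for MYH3. The libraries fall into clusters that the choice used, so these values describe the module and do not test it.

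The contrast of the labels NFATC4-KO and control was not used to choose the genes, since each set holds 2 libraries of each label. In a fit of all 15 libraries with 4 group means, 0 of the 8 were called with edgeR's quasi-likelihood test at a Benjamini-Hochberg adjusted p under 0.05, against 62 of all 14368 genes (0.432%). None of the 8 had an unadjusted p under 0.05, against 12.8% of all genes, and DESeq2 and limma-voom called none of them either. Each label spans both sets, and the choice asked the sets to differ, so a wide spread within a label was built into these genes. This fit could thus hardly call them, and nothing is read from the 0 beside the shares of all genes. For SEL1L3 the log2 fold change was 0.09 with a standard error of 0.76.

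With the set as a covariate, 1 of the 8 was called. TFPI2 was lower in the libraries labelled NFATC4-KO, with a log2 fold change of −0.56 (SE 0.16, adjusted p = 0.0335 from edgeR). Of all 13868 genes tested there, 1446 (10.4%) were called with 6.04% lower and 4.39% higher, so 1 of 8 is near the share of all genes. TFPI2 averaged 19.7 CPM in control 1 and 2 against 15.3 CPM in NFATC4-KO 1 and 2, and 1.62 CPM in control 3 and 4 against 0.50 CPM in NFATC4-KO 3 and 5. It was the only one of the 8 to lie lower under the NFATC4-KO label in both sets without overlap, as 9.09% of all genes did. The call was lost with DESeq2 (−0.92, adjusted p = 0.0653) and with any of control 1, control 4, NFATC4-KO 1, NFATC4-KO 3 or NFATC4-KO 5 left out (adjusted p = 0.0561 to 0.140 from edgeR). When the replicate block took the place of the set, which leaves out control 4 and NFATC4-KO 5, it was −0.53 (adjusted p = 0.166 from edgeR). Whether the difference of TFPI2 was larger in the second set was also tested, and the interaction was −1.33 (SE 0.38, adjusted p = 0.0984 from edgeR). It passed at 0.0190 without a filter on low counts and at 0.00665 without control 4. At an adjusted p under 0.05, 0 of the 8 had a called interaction, against 43 of all genes (0.310%), and DESeq2 called 0 of the 8. PDX1, without counts in the second set, had no usable estimate (SE 910 from edgeR) and could not have been called. At an unadjusted p under 0.05 there were 2 of the 8, TFPI2 and MYH3, near the share of 19.8% of all genes.

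The other 7 genes did not pass between the labels with the set as a covariate. KAZN had a log2 fold change of −0.23 (SE 0.14, adjusted p = 0.311 from edgeR) and SCG2 of −0.36 (SE 0.22, adjusted p = 0.323 from edgeR). SEL1L3 was at 0.10 (SE 0.12), MYH3 at −0.16 (SE 0.14), DGKI at −0.13 (SE 0.23), PDX1 at −0.33 (SE 0.45) and DNAH17 at −0.01 (SE 0.38). A value that missed the threshold does not show that the labels were alike, and for SCG2, DGKI, PDX1 and DNAH17 the error leaves room for differences as large as that of TFPI2. In the first set 5 of the 8 (KAZN, TFPI2, PDX1, DNAH17 and MYH3) lay lower under the NFATC4-KO label without overlap, as did 24.7% of all genes. In the second set SCG2 and TFPI2 did, against 25.5% of all genes, and PDX1, without counts there, could not. In all, 7 of the 8 had a log2 fold change below 0, as did 51.7% of all genes, and their median was −0.20 against −0.01 for all genes. The 8 genes share libraries and were chosen together, so these counts are not independent.

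**Figure D4:**
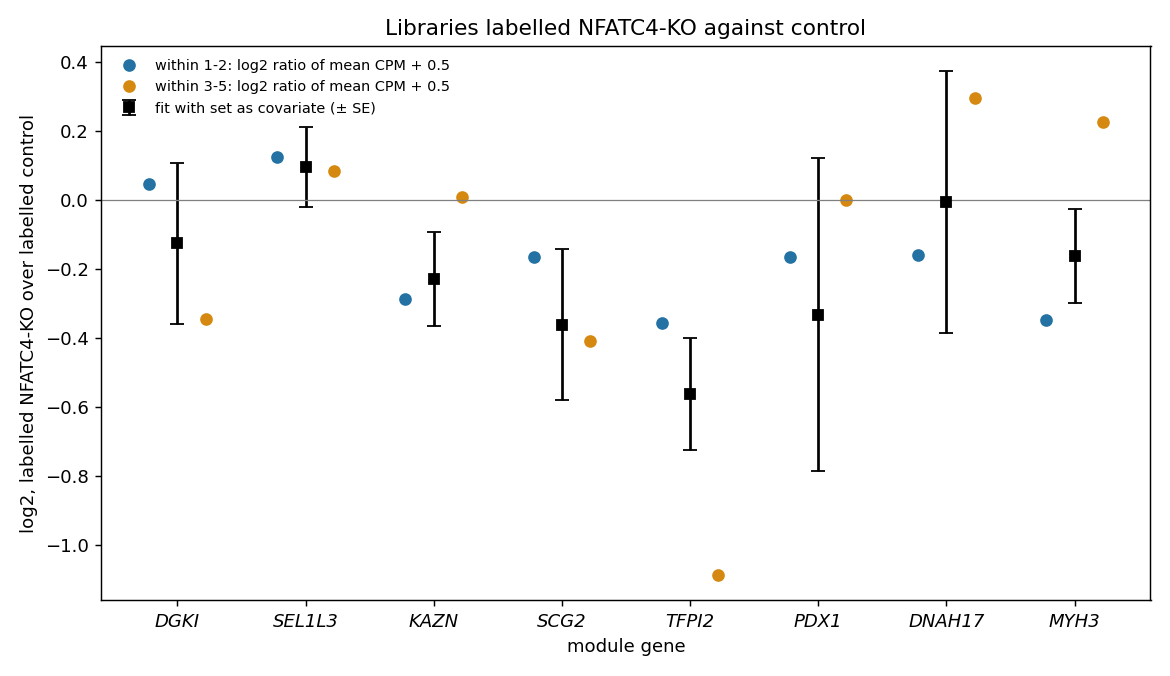
Log2 fold change of libraries labelled NFATC4-KO over control for each of the 8 genes, from the fit with the set as covariate (black, ± SE), with the log2 ratio of mean CPM + 0.5 within the first set (blue) and within the second set (orange). TFPI2 lies lowest at −0.56 and is below 0 in both sets.

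Lists of related genes that exclude the 8 were compared between ΔNFATC4 and mock libraries, where 3.69% of all genes were called, 2.27% higher and 1.42% lower, at an adjusted p under 0.05 (edgeR, Benjamini-Hochberg), with a median log2 fold change of −0.00. Of 28 genes of the calcineurin and NFAT pathway, 1 rose and 2 fell, with a median of −0.05. RCAN1, an inhibitor of calcineurin that NFAT induces, rose to 48.3 ± 2.70 CPM (SD, n = 3) over 29.2 ± 2.32 CPM in mock libraries (SD, n = 4), a log2 fold change of 0.70 (SE 0.09, adjusted p = 7.65e-04 from edgeR). ORAI1, a calcium channel, and DYRK2, a kinase of NFAT, fell by 0.39 and 0.36 on the log2 scale. RCAN1 met neither limit of the choice, and stood at 27.0 CPM in the first set and 31.1 CPM in the second. Of 9 tested genes known to respond to NFAT, 2 rose (RCAN1 and NR4A2) and 0 fell, with a median of 0.27. NR4A2, an orphan nuclear receptor that acts on the aldosterone synthase promoter, rose to 6.34 ± 0.440 CPM (SD, n = 3) over 3.21 ± 0.236 CPM in mock libraries (SD, n = 4), a log2 fold change of 0.95 (SE 0.17, adjusted p = 0.00534 from edgeR).

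Further lists, of granule genes, SEL1L partners, the GASP and ARMCX family and tetraspanins, were built around the chosen genes and markers. Those of steroidogenesis, the cell cycle, and hypoxia and glycolysis hold none of these genes. Of 17 genes of regulated secretory granules other than SCG2, 0 were called either way. VGF was among them and missed the threshold despite its log2 ratio of 1.38. The fit took its spread from all 15 libraries, and VGF stood at 56.6 CPM in the first set and 280 CPM in the second. The part of that spread in the missing call was not tested. Likewise 0 were called of 10 genes around SEL1L and of 9 genes of the GASP and ARMCX family of GPRASP1. Of 23 tetraspanins and partners of CD9, CD82 rose (log2 fold change 0.85, adjusted p = 0.00725 from edgeR) and TSPAN7 fell (−0.33, adjusted p = 0.0325 from edgeR). Of 17 steroidogenesis genes, MC2R, the ACTH receptor, and HSD3B2, a steroid dehydrogenase, rose by 0.98 and 0.60 on the log2 scale, and AGTR1, the angiotensin II receptor, fell by 0.43. None of 20 cell cycle genes passed. The same fit over all 15 libraries served all these lists, so a list with 0 calls need not hold unchanged genes. More list genes were called with only the 2 groups compared, as given further on. The hypoxia and glycolysis list stood apart in the downward direction, with 10 of 19 genes lower, 0 higher and a median of −0.54. ALDOC, an aldolase, fell to 49.7 ± 2.12 CPM (SD, n = 3) under 125 ± 24.5 CPM in mock libraries (SD, n = 4), a log2 fold change of −1.37 (adjusted p = 3.92e-05 from edgeR), and PFKFB4 and EGLN3 fell by 1.54 and 0.98 on the log2 scale. ANKRD37 fell to 0.776 CPM under 2.18 CPM in mock libraries. ALDOC stood at 55.4 CPM in the first set and 58.4 CPM in the second. PFKFB4 stood at 14.7 and 14.5 CPM there, near its 15.1 CPM with ΔNFATC4. Its mock libraries averaged 42.9 ± 16.9 CPM (SD, n = 4). ANKRD37 stood at 0.743 and 0.836 CPM in the sets. For ALDOC, PFKFB4 and ANKRD37 it was thus the mock libraries that were high. For EGLN3 the mean of the first set lay nearer to mock than to ΔNFATC4. Set levels of the other called genes in this list are not given here. The part of the differences in this list in the ratios of the 8 genes was not tested. Calls of ORAI1, DYRK2, HSD3B2, AGTR1, TSPAN7, ANKRD37 and EGLN3 were lost when some single ΔNFATC4 or mock libraries were left out. Calls of RCAN1, NR4A2, MC2R, CD82, ALDOC and PFKFB4 held with each of these libraries left out.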

How the data were processed

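RNA of NCI-H295R cells was sequenced in 15 libraries of 4 groups. Per the labels and the methods of the study, the authors prepared TruSeq mRNA libraries, trimmed adaptors, used STAR for alignment (build GRCh38.p13) and featureCounts for counting, and deposited raw counts for 21493 genes, 1 library to a file. Tool versions and the strand setting of the counting are not given in the sources used here, so reads of genes that overlap on opposite strands may not be separated. Symbols were matched for 21400 genes with GENCODE release 44 of GRCh38.

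CPM were counts over the library total, and the choice used means of CPM with 0.5 added. The 8 genes, the lists and the tests were chosen with earlier results of these data known. Tests were run with edgeR 4.0.16 in R 4.3.3 (TMM, filterByExpr, robust quasi-likelihood fit) and adjusted by Benjamini-Hochberg over all genes tested, 14368 for 15 libraries and 13868 for the 8 labelled control and NFATC4-KO. DESeq2 1.42.0 and limma 3.58.1 were alternatives, beside other scalings, filters and each library left out. Named genes are the 8, the proposed markers SEL1L3, GPRASP1 and CD9, 3 genes just inside and outside the limits, and up to 4 called genes per list by size of fold change. The values of 1 marker gene are not reported here. Of 105 pairs of libraries, 0 were identical.

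Same-numbered libraries labelled control and NFATC4-KO deviated together from their group means (correlations of 0.839, 0.810 and 0.733 for numbers 1 to 3). A pairing by number entered only the replicate block, an alternative fit, and the main fits did not use it. Numbers 1 and 2 fell in the first set and 3 in the second. Within the first set the correlation of the differences between numbers was 0.0868, so the sets may account for the correlations above. For ΔNFATC4 and mock they were 0.154, −0.142 and 0.0459, so no shared deviation by number was seen. So few libraries cannot show that a pairing is absent. The fits were tested on simulated data.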

Additional observations from a re-analysis of the deposited data

How the results depend on the processing

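The choice gave 8 genes, and 33 with 0.1 CPM added, 4 with 1 CPM added (DGKI, SEL1L3, KAZN and TFPI2) and 1 (DGKI) with a log2 ratio of 1.5 asked, against 6 to 9 with single libraries left out. DGKI met 23 of 23 alternatives, SEL1L3, KAZN and TFPI2 22, SCG2 21, PDX1 and DNAH17 19 and MYH3 15. With TMM-scaled CPM, 6 genes in place of 7 had the common order. PDX1, DNAH17 and SCG2 have low CPM, and whether they pass depends on the value added.

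Between the labels, the count of called genes over all genes was 62 with 4 groups, 357 with DESeq2, 0 with only the 2 groups compared, and 0 to 49 with single libraries left out. With the set as a covariate it was 1446, and 624 to 2139 with libraries left out. The replicate block, on libraries numbered 1 to 3, gave 138 in place of either. Of the 8 genes, the covariate fit called 1, and DESeq2 and the replicate block called 0, as 0 to 1 with libraries left out. For the interaction, 43 genes were called, 498 without a filter, 228 with DESeq2 and 1 to 2732 with libraries left out. Of the 8, 0 were called, 1 (TFPI2) without a filter and 0 to 3 with libraries left out, the 3 being TFPI2, DNAH17 and MYH3 without control 4. With libraries left out, the log2 fold change of TFPI2 with 4 groups ran from −1.18 to 0.054 (without control 1) and that of DGKI in the covariate fit from −0.34 to 0.022 (without control 3). DNAH17 in the covariate fit turned to 0.0097 without a filter, 0.13 with DESeq2, 0.26 with limma-voom and −0.24 to 0.18 with libraries left out. Of the list genes, 19 were called with ΔNFATC4, 29 with DESeq2, 45 with only the 2 groups, 45 with the replicate block and 9 to 15 with libraries left out. The cause of these shifts was not tested.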

Other observations

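In the fit of the libraries labelled NFATC4-KO against control with the set as a covariate, 8 of 16 steroidogenesis genes tested were lower at an adjusted p under 0.05 (edgeR, Benjamini-Hochberg) and 0 were higher, with a median log2 fold change of −0.31 against −0.01 for all genes. None of them is among the 8 genes of the module. Of all genes, 6.04% were lower and 4.39% higher in that fit. Of 16 secretory granule genes 3 were lower and 0 higher, of 20 cell cycle genes 2 were lower and 0 higher, and of 9 genes of the GASP and ARMCX family 1 was lower and 0 higher. Calls went both ways for 28 calcineurin and NFAT pathway genes (2 lower and 2 higher), 23 tetraspanins and partners (2 lower and 1 higher), 18 hypoxia and glycolysis genes (1 lower and 1 higher) and 8 genes known to respond to NFAT (1 lower and 1 higher). Of 10 genes around SEL1L, 0 were called. How these list counts depend on the processing is not given here. Over all genes, the count of calls between the labels changed strongly with the fit, as given above.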
